A study of Homo sapiens with 2 samples.

Results

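The genes described here are 43 genes of transforming growth factor beta (TGF-beta), activin and bone morphogenetic protein (BMP) signalling, out of 23398 gene rows measured by RNA sequencing. They were chosen by symbol from a list of ligands, receptors, SMAD proteins, antagonists and ID targets, and all 43 had a row. Of these, 41 reached 5 fragments over both libraries and are called measured below. The exceptions were BMP4, with 0 knockout fragments and 1 wild-type fragment, and GREM1, with 3 and 0.

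The samples were 1 library of a SETD2 knockout line and 1 library of wild-type 786-O cells, an established human line from a clear cell renal carcinoma. The knockout was made in 786-O with a zinc finger nuclease, so that both lines share the remaining 786-O background, including the loss of functional VHL for which this line is known. SETD2 is the enzyme that trimethylates lysine 36 of histone H3 in gene bodies. Both lines were grown in RPMI1640 with 10% fetal bovine serum and the labels name no other agent. How many knockout clones were taken is not given in the sources used here.

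TGF-beta family ligands are dimers that assemble type I and type II receptor kinases into a complex at the cell surface. The receptors for TGF-beta and activin phosphorylate SMAD2 and SMAD3, and the receptors for BMPs phosphorylate SMAD1, SMAD5 and SMAD9. Both kinds of SMAD enter the nucleus with SMAD4. In renal tubule cells TGF-beta is best known for inducing matrix genes and the loss of epithelial features, and the ID genes are classical targets of BMP signalling.

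The knockout and wild-type tables held 50670012 and 62304084 fragments in genes. SETD2 itself was counted in 1404 knockout and 4908 wild-type fragments, a ratio of 0.334 (interval 0.314 to 0.354). The 8 genes listed as renal epithelial markers summed to 1610 RPKM in knockout cells and 2230 RPKM in wild-type cells. Of this, 1192 and 1734 RPKM were VIM, vimentin, which is better known as a mesenchymal marker, so the sum mostly follows VIM. VIM was lower at a ratio of 0.651, while LHX1, a kidney developmental factor, was higher at 2.64. The 50 nearest expressed genes of VIM were also low, with a median log2 ratio of -0.49 beside -0.62 for VIM. Those of LHX1 had a median of 0.07. PAX8, a kidney transcription factor, was at 30.9 and 43.7 RPKM and the keratin KRT8 at 211 and 239 RPKM in knockout and wild-type cells. CA9, a carbonic anhydrase that the absence of VHL usually induces through HIF1A, had 0 knockout fragments and 1 wild-type fragment. The 8 endothelial markers summed to 0.587 RPKM in knockout cells and 0.384 RPKM in wild-type cells, with PECAM1 at 0 and 1 fragments and VWF at 1 fragment in each. The 10 fibroblast and pericyte markers summed to 3.59 and 3.09 RPKM and the 8 leukocyte markers to 16.8 and 15.5 RPKM, nearly all of it CD68.

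A ratio below is that of fragments scaled to library size, knockout over wild type, with its exact 95% interval. RPKM, reads per kilobase of gene scaled to library total, is the authors' own scale, on which ratios of knockout to wild type come out 1.06 times larger. A gene is called higher or lower when its whole interval lies beyond 1.5-fold. Intervals cover counting error alone: with 1 library per line there is no replicate check and no p-value, and each difference is one between these libraries. Fewer cells that express a gene and less of its RNA per cell cannot be told apart.

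The median of the pathway genes lay close to that of all genes, while some ligands, latency proteins, co-receptors and 1 signalling SMAD were among the genes called. Of the 41 measured genes, 8 were higher and 5 lower in knockout cells, and 28 were neither. Among all 16894 measured genes, 10.4% were higher and 9.17% lower by the same rule, 19.6% in either direction. With intervals beyond 2-fold, 3 pathway genes were higher and 3 lower, where 5.75% of all measured genes were higher and 3.37% lower, 9.12% in either direction. The median log2 ratio was 0.03 for the pathway genes and 0.02 for all measured genes. The higher genes were LTBP3, BMP2, BMP1, ENG, TGFBR3, BMP6, BMP7 and FST, and the lower genes INHBB, BAMBI, SMAD3, LTBP1 and INHBA. BMP6, BMP7 and FST would have reached the minimum through their knockout fragments alone, and with 0 to 2 wild-type fragments they passed only because of the library in which they were high.

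**Figure D1:**
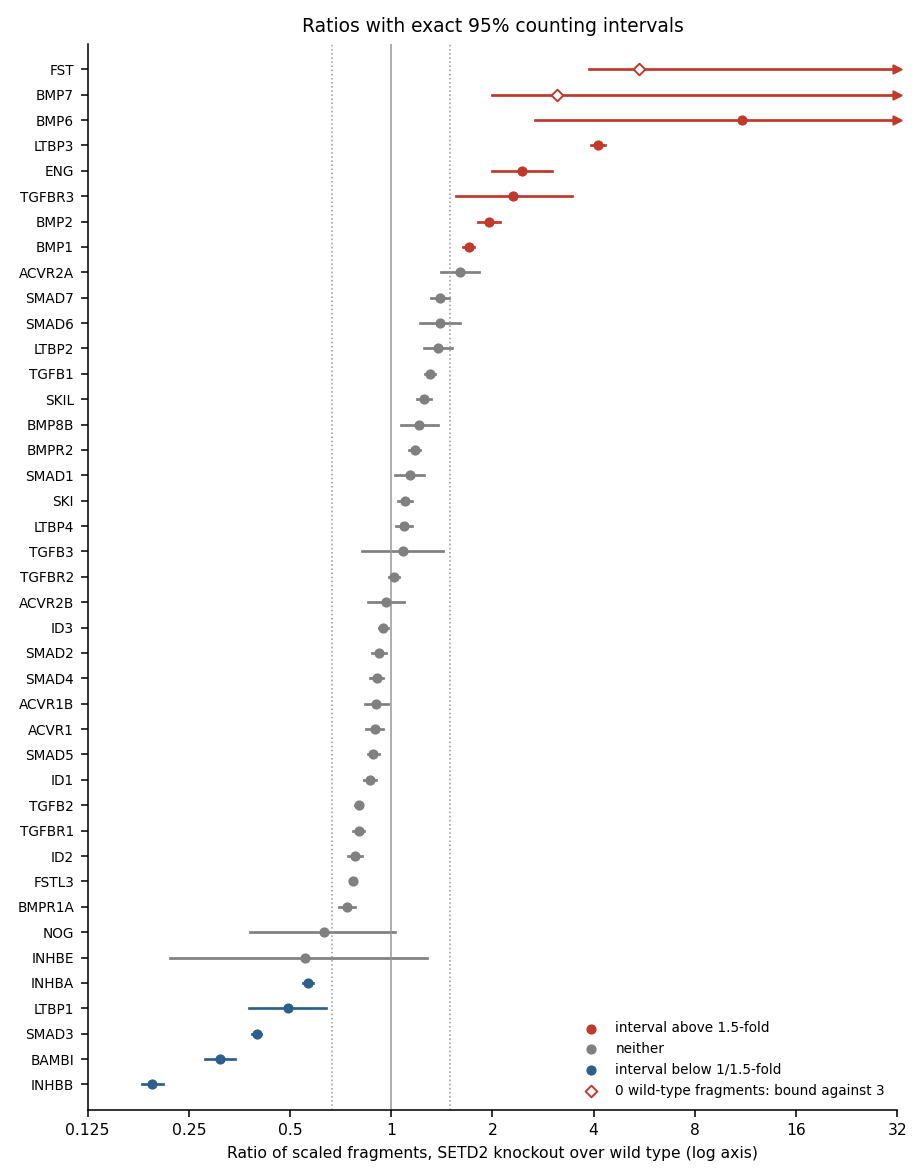
Ratio of scaled fragments, SETD2 knockout over wild type, on a log axis for the 41 measured pathway genes, with exact 95% counting intervals as bars and 1.5-fold limits as dotted lines. FST and BMP7, which had 0 wild-type fragments, are drawn as diamonds at their ratio to an assumed 3 fragments (labelled as a bound), which leaves out counting error. LTBP3 lies farthest right among genes with over 100 fragments in each library, and INHBB farthest left.

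For the genes that differed most among the abundant ones, and for SMAD6, the 250 bases before the transcription start are shown, because the palindromic SMAD site and the GC-rich element bound by BMP-activated SMADs can be looked for in them. Sequences are from RefSeq (GRCh38.p14), read 5′ to 3′ on the gene's strand, with matches to GTCTAGAC and GGCGCC in capitals. Of several windows of a gene, the one farthest upstream was taken.
BAMBI (chr10:28677271-28677520, plus strand): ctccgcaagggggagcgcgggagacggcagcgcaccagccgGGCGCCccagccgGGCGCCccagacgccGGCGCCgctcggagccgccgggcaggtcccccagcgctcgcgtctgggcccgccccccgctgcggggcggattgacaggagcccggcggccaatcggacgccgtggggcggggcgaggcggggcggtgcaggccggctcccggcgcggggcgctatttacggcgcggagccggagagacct
INHBB (chr2:120345886-120346135, plus strand): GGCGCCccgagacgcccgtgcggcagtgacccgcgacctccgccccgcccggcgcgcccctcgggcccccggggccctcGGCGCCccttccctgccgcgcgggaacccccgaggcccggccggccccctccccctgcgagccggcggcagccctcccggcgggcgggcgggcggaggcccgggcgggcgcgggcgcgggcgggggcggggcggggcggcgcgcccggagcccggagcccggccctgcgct
SMAD3 (chr15:67065352-67065601, plus strand): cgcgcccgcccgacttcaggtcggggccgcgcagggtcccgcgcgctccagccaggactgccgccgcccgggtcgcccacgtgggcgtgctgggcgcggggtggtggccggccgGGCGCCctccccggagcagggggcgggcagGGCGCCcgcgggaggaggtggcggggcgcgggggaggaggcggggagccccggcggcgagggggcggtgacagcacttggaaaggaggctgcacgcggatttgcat
SMAD6 (chr15:66701986-66702235, plus strand): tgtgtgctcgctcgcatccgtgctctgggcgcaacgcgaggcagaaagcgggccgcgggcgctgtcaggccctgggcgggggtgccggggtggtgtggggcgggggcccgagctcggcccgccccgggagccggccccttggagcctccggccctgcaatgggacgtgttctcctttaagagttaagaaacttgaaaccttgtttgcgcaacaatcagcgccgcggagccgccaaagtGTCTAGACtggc
LTBP3 (chr11:65558360-65558609, minus strand): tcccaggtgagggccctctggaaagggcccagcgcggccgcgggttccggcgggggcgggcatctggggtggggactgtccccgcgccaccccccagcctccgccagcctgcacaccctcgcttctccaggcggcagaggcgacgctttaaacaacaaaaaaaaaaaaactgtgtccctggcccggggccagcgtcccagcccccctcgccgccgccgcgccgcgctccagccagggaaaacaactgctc

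The stretches of 3 of the lower genes, BAMBI, INHBB and SMAD3, held GGCGCC 3, 2 and 2 times, at a GC content of 81.2%, 89.6% and 80.8%. That of LTBP3 held neither motif at 70.4% GC, and that of SMAD6 held GTCTAGAC once. SMAD3 had 5 windows, and those not shown held no GGCGCC. The motif did not follow the calls throughout: INHBA and LTBP1, also lower, had no GGCGCC in any window, while a window of ACVR1B, called neither, had 4. Windows of 250 bases before and 50 after each start were searched on both strands. GGCGCC lay in 19 of 67 windows of pathway genes, beside 6748 of all 35116 RefSeq windows (19.2%). The 67 windows belong to 37 genes, some with several windows, and 17 of the 37 genes had a match. A share per gene was not taken over all genes. GTCTAGAC lay in 1 of the 67 windows, that of SMAD6, and in 0.202% of all windows. The shorter SMAD box, CAGAC or its complement GTCTG, lay in 32 of the 67 windows and in 45.3% of all. A match describes these letters only, and binding was not measured here.

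**Figure D2:**
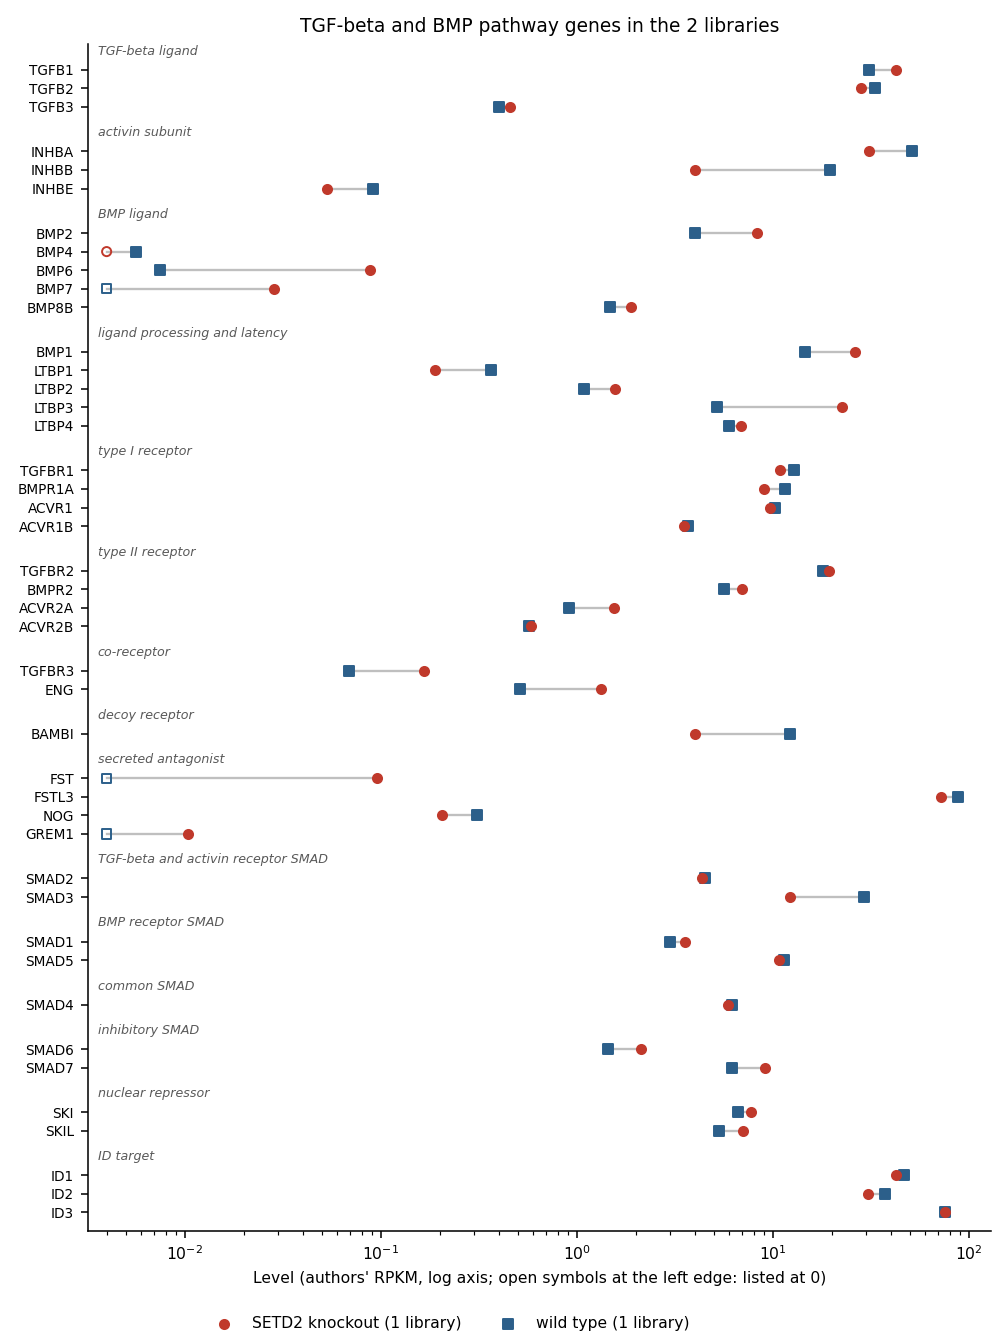
Level of each of the 43 pathway genes as the authors' RPKM on a log axis, grouped by role, with circles for the SETD2 knockout library and squares for the wild-type library. Open symbols at the left edge stand for genes listed at 0. The widest gaps between abundant genes are those of INHBB, LTBP3, BAMBI and SMAD3, while signalling receptors and ID genes lie close together.

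Among the TGF-beta ligands, TGFB1 and TGFB2 were abundant and TGFB3 was scarce. TGFB1, the most widely expressed isoform, was at 42.6 RPKM in knockout cells and 30.8 RPKM in wild-type cells, from 6519 and 5818 fragments, a ratio of 1.31 (interval 1.26 to 1.35). TGFB2 was at 28.2 and 33.3 RPKM, a ratio of 0.801 (0.783 to 0.821). TGFB3 had 101 and 109 fragments and an interval that includes 1 (0.816 to 1.43). None of these passed 1.5-fold, yet the order of the abundant isoforms differed: TGFB1 was 1.51 times TGFB2 per kilobase in knockout cells (interval 1.47 to 1.56) and 0.927 times TGFB2 in wild-type cells (0.9001 to 0.956). TGFB1 thus made up 59.8% of the summed RPKM of the 3 isoforms in knockout cells and 47.8% in wild-type cells.

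The activin subunits were the ligand class that was lower. INHBB (hg19 chromosome 2, 121103719 to 121109383), the beta B subunit of activin B, had 897 knockout fragments and 5377 wild-type fragments, or 4.02 and 19.6 RPKM. It was 5.14-fold lower in knockout cells (interval 4.79-fold to 5.52-fold), the largest decrease of any measured pathway gene. INHBA (chromosome 7, 41728601 to 41742706), the beta A subunit of activin A, was at 30.8 and 51.5 RPKM from 4659 and 9611 fragments, 1.77-fold lower (1.71-fold to 1.83-fold). The 50 nearest expressed genes had a median log2 ratio of -0.26 around INHBA and 0.01 around INHBB. Set against its neighbours, INHBA no longer passed 1.5-fold, with a ratio of 0.676. INHBE, a subunit best known from liver, had 9 and 19 fragments and an interval from 0.220 to 1.28. INHBA made up 88.3% of activin subunit RPKM in knockout cells and 72.4% in wild-type cells.

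BMP ligands were scarce apart from BMP2. BMP2 (chromosome 20, 6748745 to 6760910), an inducer of bone that also acts in many epithelia, was at 8.28 RPKM in knockout cells and 4.002 RPKM in wild-type cells. Its 1815 and 1081 fragments gave a ratio of 1.958 (interval 1.82 to 2.11). BMP8B was at 1.89 and 1.47 RPKM, a ratio of 1.21 (1.07 to 1.38), and may share reads with its close copy BMP8A, which had 85 and 60 fragments. BMP8B also overlaps PPIE, a peptidyl-prolyl isomerase gene with 486 and 1363 fragments. BMP7, a ligand needed for kidney development, had 8 knockout fragments and 0 in wild-type cells. Set against an assumed 3 wild-type fragments, BMP7 was 3.11-fold higher. This leaves out counting error in the knockout count, and the exact interval starts at 1.99. BMP6, a regulator of hepcidin in the liver, had 19 and 2 fragments, a ratio of 11.1 with an interval from 2.67 to 98.1. It overlaps TXNDC5, which had 1225 and 1417 fragments, and reads of the 2 genes may not be told apart. BMP6 and BMP7 stayed under 0.1 RPKM in each library. The BMP ligand total of 10.3 RPKM in knockout and 5.49 RPKM in wild-type cells was thus mostly BMP2.

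Proteins that process or store ligands differed in both directions. LTBP3 (chromosome 11, 65306030 to 65325699), a latent TGF-beta binding protein that escorts the latent complex out of the cell, had 7384 knockout fragments and 2086 wild-type fragments. At 22.6 and 5.17 RPKM its ratio was 4.13 (interval 3.93 to 4.34), and its neighbours had a median log2 ratio of 0.04. LTBP1 had 84 and 199 fragments and was 2.03-fold lower (1.57-fold to 2.65-fold). LTBP2 and LTBP4 had ratios of 1.37 and 1.09 and were neither. LTBP3 accounted for 72.4% of the summed RPKM of the 4 binding proteins in knockout cells and for 41.1% in wild-type cells, where LTBP4 had the largest share at 47.4%. BMP1, a metalloprotease that cleaves procollagens and the BMP antagonist chordin, was at 26.1 and 14.5 RPKM, a ratio of 1.70 (1.64 to 1.76).

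The signalling receptors differed little. None of the 4 type I and 4 type II receptors was higher or lower by the 1.5-fold rule, and their ratios ran from 0.739 for BMPR1A, a type I receptor for BMPs, to 1.60 for ACVR2A, a type II receptor for activins. The 4 type I receptors had ratios below 1, but relative to its nearest genes ACVR1B had a ratio of 1.18. TGFBR1, the type I receptor for TGF-beta and the most abundant of them, was at 10.8 RPKM in knockout and 12.8 RPKM in wild-type cells, a ratio of 0.801 (interval 0.772 to 0.831). TGFBR2, its type II partner, was at 19.4 and 18.1 RPKM with a ratio of 1.02 (0.984 to 1.05), so both libraries held it at nearly the same level. ACVR2A had 565 and 411 fragments, and its interval reached down to 1.41. ACVR1 and ACVR1B, type I receptors for BMPs and activins, were at 9.68 and 3.52 RPKM in knockout cells and at 10.3 and 3.69 RPKM in wild-type cells. BMPR2, the type II receptor for BMPs, had a ratio of 1.17 (1.13 to 1.22), and ACVR2B an interval that includes 1 (0.851 to 1.09). Relative to the 50 nearest expressed genes, whose median log2 ratio was 0.32, TGFBR1 was lower past 1.5-fold at a ratio of 0.642.

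Both co-receptors were higher from low levels, and the decoy receptor was lower. ENG, endoglin, a co-receptor known mainly from endothelium, had 294 knockout fragments and 140 wild-type fragments, or 1.32 and 0.511 RPKM, a ratio of 2.45 (interval 1.996 to 3.02). The endothelial markers PECAM1 and CDH5 had 0 and 3 fragments in knockout cells and 1 and 4 in wild-type cells. Across the endothelial list, 2 of the 6 genes measured were called higher (33.3%) and none lower, beside 10.4% and 9.17% of all measured genes. The 2 were ERG, with 22 knockout and 3 wild-type fragments, and TEK, with 16 and 4. They reached the minimum only through the knockout library. Of the 6 genes, 4 had log2 ratios above 0 and 2 below 0. TGFBR3, betaglycan, which presents TGFB2 to the receptors, had 79 and 40 fragments, a ratio of 2.30 (1.56 to 3.46), while its neighbours on chromosome 1 had a median log2 ratio of -0.65. BAMBI (chromosome 10, 28966424 to 28971868), a transmembrane pseudoreceptor that lacks a kinase and dampens TGF-beta and BMP signals, had 480 and 1808 fragments. It was at 4.001 and 12.2 RPKM, 3.23-fold lower in knockout cells (2.92-fold to 3.58-fold).

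Of the secreted antagonists, FSTL3, a follistatin-like binder of activins, made up 99.6% of the RPKM of its class in knockout cells and 99.7% in wild-type cells. It was at 71.9 RPKM in knockout cells and 88.3 RPKM in wild-type cells, from 12559 and 19017 fragments, a ratio of 0.770 (interval 0.753 to 0.788). FST, follistatin, had 14 knockout fragments and 0 in wild-type cells. It was 5.44-fold higher when 3 wild-type fragments are assumed, and its exact interval starts lower, at 3.87. At 0.0959 RPKM it remained far below FSTL3. NOG, the BMP antagonist noggin, had 27 and 50 fragments and an interval that includes 1 (0.379 to 1.03). INHBA was 0.428 times FSTL3 per kilobase in knockout cells (0.414 to 0.443) and 0.583 times in wild-type cells (0.569 to 0.598).

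Among the 7 SMADs of the pathway genes, SMAD3 was called lower and none was called higher. SMAD9, which is on the list of further pathway genes, was called higher at a ratio of 1.87 (interval 1.67 to 2.11). SMAD3 (chromosome 15, 67358195 to 67487533), which carries TGF-beta and activin signals and binds DNA directly, had 5663 knockout fragments and 16616 wild-type fragments. It was at 12.3 and 29.3 RPKM, 2.52-fold lower in knockout cells (interval 2.44-fold to 2.59-fold). SMAD2, its partner on the same receptors, was at 4.36 and 4.49 RPKM with a ratio of 0.920 (0.878 to 0.963). SMAD3 was therefore 2.82 times SMAD2 per kilobase in knockout cells (2.70 to 2.94) and 6.52 times in wild-type cells (6.30 to 6.75), a comparison that library scaling does not touch. SMAD4, shared by both branches, was at 5.94 and 6.21 RPKM, a ratio of 0.906 (0.867 to 0.946). Among the BMP-regulated SMADs, SMAD5 was at 10.7 and 11.4 RPKM (ratio 0.885, interval 0.854 to 0.918) and SMAD1 at 3.57 and 2.97 RPKM (ratio 1.14, interval 1.03 to 1.26).

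The inhibitory SMADs and nuclear repressors had ratios above 1 that did not pass 1.5-fold. SMAD7, which blocks TGF-beta and BMP receptors and is induced by both signals, was at 9.15 RPKM in knockout and 6.21 RPKM in wild-type cells, a ratio of 1.39 (interval 1.31 to 1.48). SMAD6, which mainly restrains BMP signals, was at 2.13 and 1.44 RPKM, a ratio of 1.39 (1.22 to 1.60). SMAD7 was 4.30 times SMAD6 per kilobase in either library, with intervals of 3.89 to 4.76 in knockout cells and 3.85 to 4.81 in wild-type cells. SKIL and SKI, which recruit co-repressors to SMADs, had ratios of 1.25 (1.19 to 1.31) and 1.10 (1.05 to 1.16), with SKI the more abundant at 7.75 and 6.67 RPKM.

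Some pathway genes lie near each other, and near neighbours could have ratios on opposite sides of 1. SMAD6 and SMAD3 lie 0.284 Mb apart on chromosome 15 with 0 rows of other genes between them, and their ratios were 1.39 and 0.398. SMAD3 was 5.78 times SMAD6 per kilobase in knockout cells and 20.3 times in wild-type cells. On chromosome 18, SMAD2, SMAD7 and SMAD4 lie within a few megabases, with ratios of 0.920, 1.39 and 0.906.

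**Figure D3:**
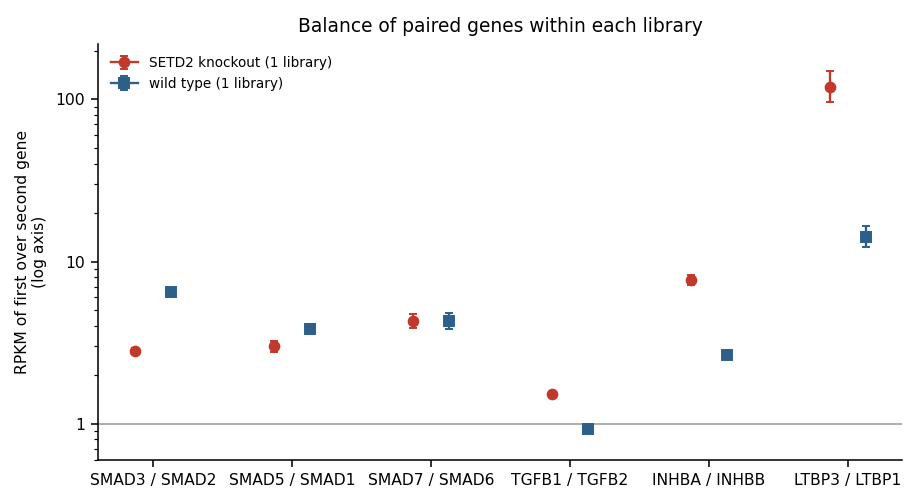
RPKM of a gene over that of a partner within each library, on a log axis, for 6 pairs of pathway genes, with circles for SETD2 knockout, squares for wild type and bars for exact 95% counting intervals. SMAD3 over SMAD2 is lower in knockout cells (2.82 against 6.52), SMAD7 over SMAD6 is 4.30 in both libraries, and LTBP3 over LTBP1 is 119 in knockout and 14.2 in wild-type cells.

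The ID genes, which encode inhibitors of helix-loop-helix transcription factors, were abundant in both libraries. ID3 was at 75.2 RPKM in knockout cells and 75.1 RPKM in wild-type cells, from 6482 and 7982 fragments, a scaled ratio of 0.947 (interval 0.916 to 0.979). ID1 was at 42.5 and 46.5 RPKM with a ratio of 0.865 (0.829 to 0.904), and ID2 at 30.7 and 37.2 RPKM with a ratio of 0.782 (0.746 to 0.819). None of the 3 passed 1.5-fold. ID3 had a ratio of 0.999 under total count scaling and 1.003 relative to its nearest genes. The order ID3, ID1, ID2 was the same in both libraries. Their summed level was 148 RPKM in knockout and 159 RPKM in wild-type cells.

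Among 81 further genes of the TGF-beta superfamily pathway, 62 were measured, of which 9 were higher (14.5%) and 6 lower (9.68%), beside 10.4% and 9.17% of all measured genes. With undivided counts 14 were higher. The median log2 ratio was 0.27, against 0.02 for all measured genes, with 37 genes above 0 and 25 below. Nearly all of the scarcest genes lay above 0. Among them were GDF5 with 9 knockout fragments and 1 wild-type fragment, LEFTY1 with 13 and 5, and CHRD with 5 and 0. LRRC32 with 0 and 5 lay below. The median therefore leans on genes near the minimum. The higher ones included GDF15, a stress-induced ligand, at 26.0 RPKM in knockout and 6.13 RPKM in wild-type cells (ratio 4.01, interval 3.67 to 4.39). MSTN, myostatin, had 34 knockout fragments and 1 wild-type fragment (interval of the ratio 6.65 to 1612), and it reached the minimum only through the knockout library. FBN1, the fibrillin that anchors latent TGF-beta binding proteins, had a ratio of 2.88 (2.74 to 3.03) and TLL2, a BMP1-like protease, of 4.66 (4.03 to 5.41). The type I receptor ACVR1C had 55 and 13 fragments, a ratio of 4.93 (2.66 to 9.85).

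The lower genes of this list included secreted and intracellular regulators. BMPER, a secreted modulator of BMPs, had 54 knockout and 324 wild-type fragments and was 5.14-fold lower (interval 3.85-fold to 6.996-fold). ITGB8, an integrin subunit that activates latent TGF-beta, had a ratio of 0.409 (0.391 to 0.428), while ITGB6, a subunit with the same activity, was among the higher genes at 2.67 (2.46 to 2.90). SMURF1 and STRAP, which restrain signalling by degrading or binding pathway proteins, had ratios of 0.503 (0.484 to 0.523) and 0.562 (0.546 to 0.579). Their 50 nearest expressed genes also had low median log2 ratios, -0.74 around SMURF1 and -0.74 around STRAP. RGMB, a BMP co-receptor, had a ratio of 0.578 (0.527 to 0.634). All 19 SMAD regulators on the list were measured, with 0 higher and 3 lower (15.8%, beside 9.17% of all measured genes). Relative to the nearest genes none of these 3 was called: SMURF1 had a ratio of 0.841, STRAP of 0.940 and SMURF2, a relative of SMURF1, of 0.710.

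Targets of TGF-beta were called in both directions. Of 27 measured genes on a list of 28, 9 were higher (33.3%) and 7 lower (25.9%), beside the 10.4% and 9.17% of all measured genes, with a median log2 ratio of 0.14. ACTA2, smooth muscle actin, had 1303 knockout and 495 wild-type fragments (ratio 3.07), and SNAI1, a repressor of epithelial genes, 1556 and 661 (ratio 2.75). The row of ACTA2 overlaps that of FAS, and reads of these genes may not be told apart. TSC22D1, a leucine zipper protein, had a ratio of 2.87, CDKN1A, a cell cycle inhibitor, of 2.38, and FN1, fibronectin, of 2.05 at 961 and 445 RPKM. MMP2, a gelatinase, was 8.01-fold lower with 1064 and 9943 fragments, and VEGFA, a vascular growth factor, had a ratio of 0.511. COL3A1 had 2 knockout and 20 wild-type fragments (interval of the ratio 0.0132 to 0.480) and COL1A2 had 0 and 14, and both reached the minimum only through the wild-type library. Assuming 3 knockout fragments, COL1A2 was 4.001-fold lower, and its exact interval starts at a smaller change, 2.84-fold. Its 50 nearest expressed genes had a median log2 ratio of -0.83. Relative to them COL1A2 was still called lower, with an interval that ended at a ratio of 0.627. PMEPA1, a feedback inhibitor of the pathway and a well-known SMAD3 target, was neither, at a ratio of 1.36 (1.34 to 1.39). COL1A1, COL1A2 and COL3A1 of this list are also on the fibroblast and pericyte list. There 1 of 9 measured genes was higher (11.1%) and 3 were lower (33.3%), beside 10.4% and 9.17% of all measured genes. COL1A1 is the higher gene, and COL1A2 and COL3A1 are among the lower ones.

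Of 20 BMP targets other than the ID genes already described, 17 were measured, with 4 higher (23.5%) and 3 lower (17.6%), beside 10.4% and 9.17% of all measured genes, and a median log2 ratio of 0.13. HEY2, a transcriptional repressor, had 48 knockout and 5 wild-type fragments (ratio 11.2, interval 4.48 to 36.0), and MSX2, a homeobox factor, 217 and 82 (ratio 3.09). SMAD9, which is also on the list of further pathway genes, had a ratio of 1.87 and the homeobox gene DLX2 one of 1.84. Relative to the nearest genes SMAD9 was not called, with a ratio of 1.63 and an interval from 1.45 to 1.83. TNFRSF11B, osteoprotegerin, had 9 and 211 fragments and was 20.1-fold lower (10.4-fold to 44.6-fold). GATA3 had 0 knockout and 17 wild-type fragments and was 4.86-fold lower on the same assumption, with an exact interval that starts at 3.54-fold. Its 50 nearest expressed genes had a median log2 ratio of -0.67, and relative to them its interval ended at a ratio of 0.451, still called lower. GATA3 too reached the minimum only through the wild-type library. ATOH8, a helix-loop-helix factor, had a ratio of 0.559.

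**Figure D4:**
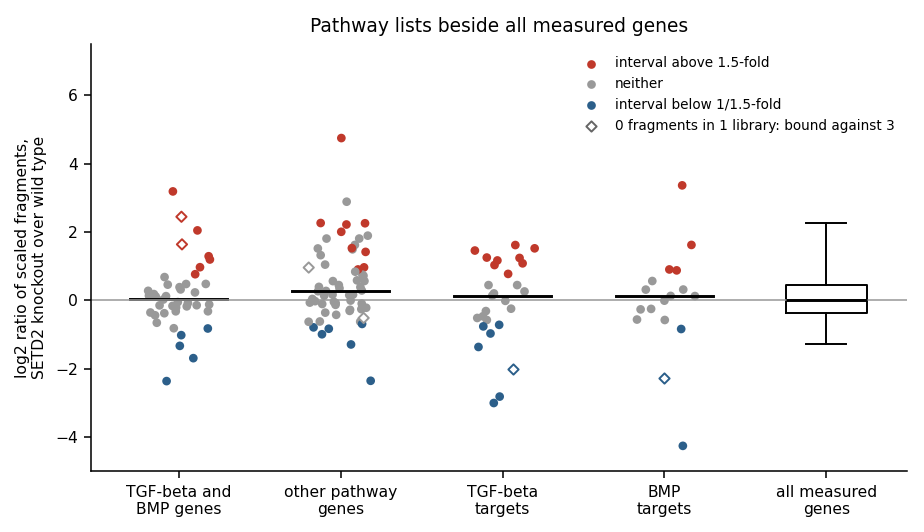
log2 ratio of scaled fragments, SETD2 knockout over wild type, for the measured genes of 4 lists (points, with a black line at the median) and for all 16894 measured genes (box from the 25th to the 75th percentile, whiskers at the 5th and 95th). Medians lie between 0.02 and 0.27, and called genes appear on both sides in each list. Genes with 0 fragments in 1 library are drawn as diamonds at their ratio to an assumed 3 fragments (labelled as a bound), which leaves out counting error.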

How the data were processed

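RNA of 1 library per line was sequenced, and groups were taken from the labels. Each table that the authors deposited has a read count and an RPKM for every gene (the units are per the file headers). The submitters' processing notes name hg19, TopHat2 2.0.6, Bowtie and HTSeq. Their settings and any use of strand are not stated, so reads of overlapping genes (9 of the 43 genes overlap another row) cannot be told apart. Every deposited count was even, and counts were halved to fragments on the assumption that both reads of a pair were counted, which no source used here states. Halving widens every interval. For 23 genes listed on X and on Y, the Y row was dropped.

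Library scaling was by TMM (edgeR 4.0.16, R 4.3.3) over the 16894 genes that reached 10 reads in sum. Ratios have exact conditional (Clopper-Pearson) 95% intervals (scipy 1.17.1), and log2 ratios use 0.5 added fragments. Genes at 0 were set to a floor of 3 fragments per library (0.0577 CPM in knockout, 0.0494 CPM in wild type). Local medians used the 50 nearest genes with at least 100 reads. The interval rule was tested on counts simulated with counting error alone, which is the model that the intervals assume. That test cannot say how the rule fares where cultures or clones vary. Alternatives were other scalings (DESeq2 1.42.0 size factors among them), minimums, undivided counts, and other intervals and thresholds.

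Pathway genes called at 1.5-fold and the most abundant of each role are given in full, and the other lists by up to 5 genes per direction, ranked by the interval bound nearest to 1. Genes named beyond this rule (PMEPA1, ITGB6, BMP8A, PPIE, FSTL1, THBS1, TGFBI and markers other than the most abundant) were chosen after their values were seen. The members and lists were chosen with earlier results of these data known. Some results that the rule would name are not reported here. LDLRAD4 was found under its older symbol C18orf1.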

Additional observations from a re-analysis of the deposited data

How the results depend on the processing

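Under total count, upper quartile and DESeq2 scaling, a minimum of 1 read, undivided counts and the ratio relative to the 50 nearest genes, the same 8 pathway genes were higher. With at least 50 reads, 5 were, because BMP6, BMP7 and FST had too few fragments to be tested. At 2-fold, 3 were higher (LTBP3, BMP6 and FST) and 3 lower (INHBB, BAMBI and SMAD3), where all genes had 5.75% higher and 3.37% lower. A 99% interval removed the calls of BMP7, TGFBR3 and LTBP1. LTBP1 was also not called under total count and upper quartile scaling, and relative to nearest genes INHBA was not called while TGFBR1 was. Without an interval, ACVR2A was higher and INHBE and NOG lower in addition. The mean log2 ratio of the pathway genes was 0.27, against a median of 0.03, beside 0.13 and 0.02 for all genes. Of the further pathway genes, undivided counts called 14 higher, and ratios without an interval called 22 higher and 10 lower, against 9 and 6. No result changed sign among the called pathway genes. No paired analysis was possible because each line has 1 library. Depth limits the genes under about 20 fragments, and counting intervals say nothing of variation between cultures or clones.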

Other observations

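Over the 41 measured pathway genes, the log2 ratio had a Pearson r of 0.26 and a Spearman rho of 0.28 with the median of the 50 nearest expressed genes, beside 0.21 and 0.30 over all 16873 genes with such neighbours. With the log10 of the gene's span the values were 0.15 and 0.18 for the pathway genes and 0.05 and 0.02 for all measured genes. These are descriptions across genes that share the same 2 libraries, with no test.

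Several abundant pathway modulators outside the genes described above differed by less than 1.5-fold. FSTL1, a secreted follistatin-like glycoprotein, was at 347 RPKM in knockout and 251 RPKM in wild-type cells (ratio 1.31, interval 1.29 to 1.32). THBS1, thrombospondin, an activator of latent TGF-beta, was at 156 and 154 RPKM (ratio 0.955, interval 0.945 to 0.966). TGFBI, a matrix protein named for its induction by TGF-beta, was at 1307 and 1125 RPKM (ratio 1.10, interval 1.09 to 1.11).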
